A study of Arabidopsis thaliana with 24 samples.

Results

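10 Arabidopsis genes that make, inactivate or perceive gibberellin were followed through 24 RNA-seq libraries of detached leaves. The genes were chosen by name from a count table of 38194 features, and all 10 were found. GA20OX1, GA20OX2 and GA3OX1 encode enzymes of late gibberellin synthesis, GA2OX1, GA2OX2, GA2OX6 and GA2OX8 encode enzymes of breakdown, and GID1A, GID1B and GID1C encode the receptors. The leaves came from Columbia-0 plants grown for 10 d in continuous light, and each library was made from a pool of whole detached first and second leaves. In the group called stimulus, the leaves were floated for 8 h at 21 °C with 20 µM bikinin, which blocks kinases restraining the brassinosteroid pathway, the synthetic auxin 2,4-D at 2.5 µg/mL and the cytokinin kinetin at 0.5 µg/mL. The mock group had the same buffer of Murashige and Skoog salts, 5.0% glucose and dimethyl sulfoxide without these 3 compounds. The 3 compounds were given together, so their separate effects cannot be told apart. Both groups then received 1 mM cordycepin, an adenosine analogue that ends growing RNA chains, and were frozen 0, 15, 60 or 240 min later by label. Each of the 8 groups had 3 libraries, numbered 2, 3 and 4.

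Active gibberellins are made in plastids, the endoplasmic reticulum and the cytosol. In the last steps, 20-oxidases such as GA20OX1 and GA20OX2 supply the precursors that 3-oxidases such as GA3OX1 convert into active hormone. The 2-oxidases remove either the active hormone and its precursors (GA2OX1, GA2OX2, GA2OX6) or earlier, longer precursors (GA2OX8). Hormone bound to a GID1 receptor brings the receptor together with DELLA proteins, the repressors of the pathway, which are then degraded. The pathway is known for feedback, in which low gibberellin signalling raises transcripts of synthesis enzymes and receptors and lowers those of 2-oxidases. Auxin is known from other tissues, such as pea stems and Arabidopsis seedlings, to act on several of these genes.

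The treatment labels were checked on GH3.3, an auxin-induced gene. It stood at 150.2 to 750 CPM, counts relative to a library's scaled total, in the 12 stimulus libraries and at 0.748 to 7.33 CPM in the 12 mock libraries. Total counts ran from 24021278 to 34166478 per library. All 5 leaf markers were present, at a summed 4461 to 11683 CPM in stimulus and 8017 to 27769 CPM in mock, while 1 of 3 root markers, 1 of 3 flower markers and 0 of 2 seed markers reached 1 CPM. The leaf marker sum was thus mostly lower in stimulus, and its part in the results below was not tested. In such bulk tissue, fewer cells of a type and less RNA per cell cannot be told apart. The labels do not say that libraries of a group came from separate cultures, so p-values measure the spread between these libraries.

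The time labels and the values were in conflict. A decline index, the median log2 change of 200 transcripts that fell most by 60 min in stimulus replicate 2, was 0.13, -0.31, -1.52 and -2.00 at 0, 15, 60 and 240 min in that replicate, from which it was built. Stimulus replicate 3 gave 0.12, 0.13, -0.32 and -1.54 at these times, and stimulus replicate 4 gave -0.24, -1.68, -2.07 and -2.08. Mock replicate 4 declined alike, with -0.00, -1.55, -1.78 and -2.17. Mock replicate 2 stayed near 0 throughout, with 0.03, -0.10, 0.03 and -0.09, and mock replicate 3 gave -0.03, -0.45, -1.53 and -0.48, so the library labelled 240 min had declined less than the one labelled 60 min. A score of evening minus morning clock genes also split the libraries into 17 on the morning side and 7 on the evening side, and at 0 min the only library on the evening side was mock replicate 3. The index was taken from the mean of each treatment's own libraries at 0 min. It thus lies near 0 at that time by construction and cannot compare the treatments there. Within each treatment the libraries differed least in the index at 0 min, and the results below lead with that time.

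At 0 min, transcripts of both 20-oxidases, of 3 of the 4 breakdown enzymes and of the receptor GID1B were higher in stimulus leaves, and those of the 3-oxidase GA3OX1 and of the receptor GID1A were lower. Of the 9 members with enough counts to test, 6 rose, 2 fell and GID1C did not pass the test. GA20OX2, among the 6, passed the filter on low counts through its stimulus libraries only. GA3OX1, among the 2 that fell, passed it through its mock libraries, with 8 to 15 reads in stimulus. Across all 20323 features tested, edgeR's quasi-likelihood test called 56.3% at an adjusted p under 0.05, with 26.6% higher and 29.7% lower, and the members' count is to be read against that background. The libraries of the groups did not overlap for 8 of the 9 tested members and for 65.3% of all features tested. The median change was 1.59 (log2) over the 9 tested members and -0.02 over all features. The members' median includes GA20OX2 and GA3OX1 and pools genes that moved in both directions. The members were also chosen with earlier results of these data known, so this median is a description and not a test. Scaling by total counts moves the median of all features to 0.23 and the split of calls to 41.0% higher and 20.3% lower, with again 6 members higher and 2 lower.

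**Figure D1:**
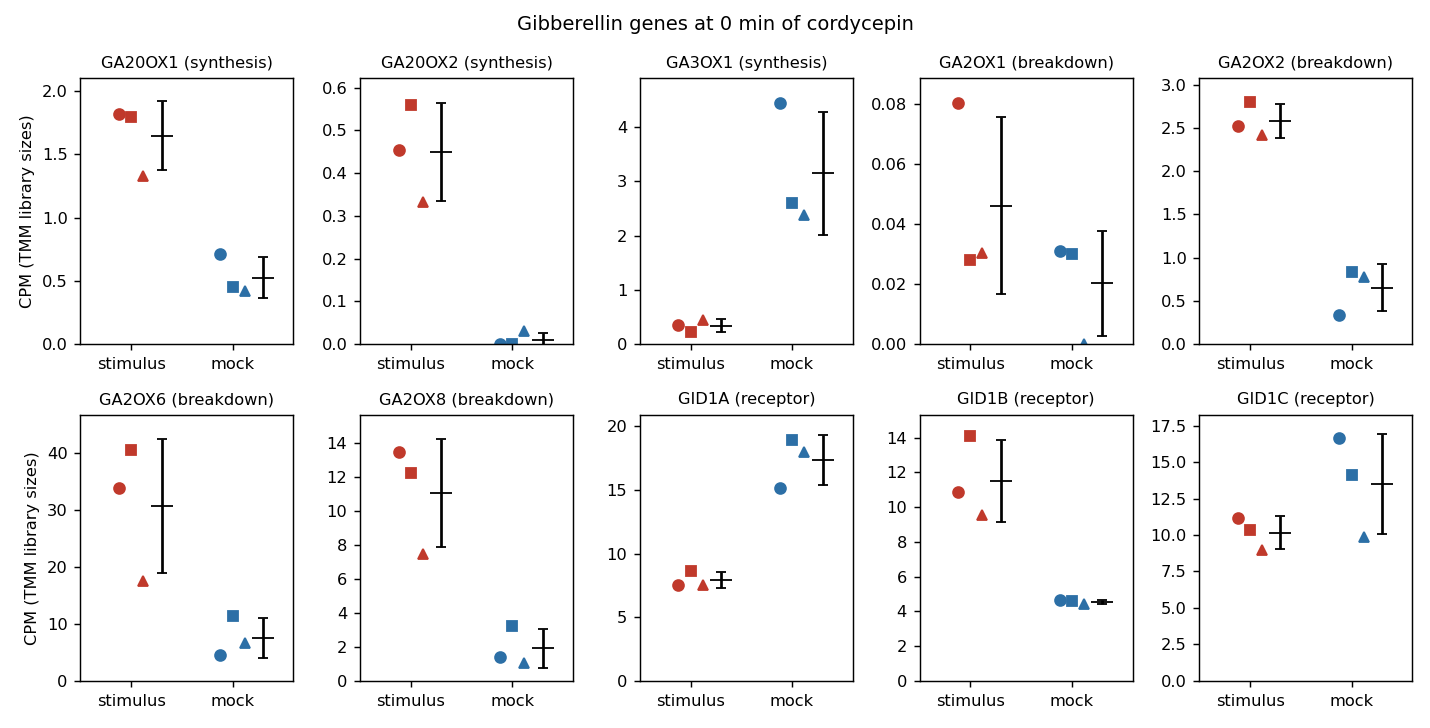
Level of each of the 10 genes at 0 min in CPM (trimmed-mean library sizes), with stimulus at left and mock at right in each panel, circles, squares and triangles for replicates 2, 3 and 4, and black bars for mean ± SD (n = 3). The groups do not overlap for 8 genes, with GA3OX1 and GID1A lower in stimulus, and they overlap for GA2OX1 and GID1C.

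Among the synthesis enzymes, GA20OX1 (AT4G25420, chr4:12990851-12992585 on the minus strand of TAIR10.1) had 1.82, 1.79 and 1.33 CPM in stimulus replicates 2, 3 and 4, against 0.711, 0.449 and 0.417 CPM in the mock replicates. Every stimulus library was above every mock library. The difference was 1.59 ± 0.29 (log2, SE), or 3.02-fold, with an adjusted p of 0.00134 in edgeR.

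GA20OX2 (AT5G51810, chr5:21055179-21056881, minus strand) was nearly absent from mock leaves. It had 17, 20 and 11 reads in the stimulus libraries, against 0, 0 and 1 reads in the mock libraries, which is 0.449 ± 0.114 CPM in stimulus and 0.00993 ± 0.0172 CPM in mock (SD, n = 3 each). A count of 0 allows up to 3 reads in that library, and such limits cover counting error only. The ratio of the summed, depth-scaled counts, 48 against 1, was 51.5 with an exact 95% interval of 8.81 to 2076. The gene passed the filter on low counts through its stimulus libraries, so its call in edgeR (adjusted p 3.74e-04) carries less weight than its counts.

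GA3OX1 (AT1G15550, chr1:5344388-5346342, minus strand), which makes the active hormone, moved the other way. It had 0.348, 0.224 and 0.454 CPM in stimulus replicates 2, 3 and 4, against 4.45, 2.60 and 2.38 CPM in mock. The highest stimulus library held less than any mock library by a wide margin, with 8 to 15 reads in stimulus and 80 to 144 reads in mock. The difference was -3.25 ± 0.35 (log2, SE), 0.105 of the mock level, with an edgeR adjusted p of 6.07e-05. The gene passed the filter on low counts through its mock libraries, so this call too carries less weight than its counts.

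The 250 bases before the annotated start of 5 called members are shown because these genes are the synthesis enzyme that fell (GA3OX1), the 3 breakdown enzymes that rose together and the receptor that fell (GID1A). They were read from the RefSeq genome TAIR10.1, 5′ to 3′ on the gene's strand, and capitals mark the matches found.
GA3OX1 (chr1:5346343-5346592, minus strand): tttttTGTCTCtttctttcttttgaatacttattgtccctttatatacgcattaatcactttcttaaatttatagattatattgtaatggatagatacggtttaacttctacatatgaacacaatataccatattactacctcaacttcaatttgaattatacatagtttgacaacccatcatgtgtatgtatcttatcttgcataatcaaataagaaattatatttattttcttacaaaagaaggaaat
GA2OX2 (chr1:10537207-10537456, plus strand): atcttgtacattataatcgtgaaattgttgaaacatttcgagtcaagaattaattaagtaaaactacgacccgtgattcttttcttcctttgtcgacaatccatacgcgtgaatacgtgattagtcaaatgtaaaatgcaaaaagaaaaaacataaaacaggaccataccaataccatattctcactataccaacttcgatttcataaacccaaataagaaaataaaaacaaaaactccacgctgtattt
GA2OX6 (chr1:486550-486799, plus strand): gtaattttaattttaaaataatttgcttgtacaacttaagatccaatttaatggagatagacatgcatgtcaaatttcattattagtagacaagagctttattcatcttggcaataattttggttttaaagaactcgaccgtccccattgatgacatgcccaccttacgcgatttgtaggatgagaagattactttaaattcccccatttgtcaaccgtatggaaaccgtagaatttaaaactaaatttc
GA2OX8 (chr4:11302432-11302681, plus strand): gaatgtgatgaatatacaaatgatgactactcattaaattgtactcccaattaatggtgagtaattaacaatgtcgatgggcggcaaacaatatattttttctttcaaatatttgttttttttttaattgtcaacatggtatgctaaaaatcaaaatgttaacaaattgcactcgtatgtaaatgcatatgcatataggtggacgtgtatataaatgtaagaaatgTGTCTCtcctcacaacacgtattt
GID1A (chr3:1430113-1430362, plus strand): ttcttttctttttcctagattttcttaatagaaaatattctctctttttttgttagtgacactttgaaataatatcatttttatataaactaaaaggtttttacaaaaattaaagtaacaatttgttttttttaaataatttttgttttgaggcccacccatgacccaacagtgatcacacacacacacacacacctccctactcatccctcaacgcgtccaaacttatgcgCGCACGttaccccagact

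6 motifs were searched on both strands in the same window of all 10 members and of 27443 protein-coding genes. TGTCTC, the auxin response element, lay 240 to 245 bases before the start of GA3OX1 and 19 to 24 bases before that of GA2OX8, and 10.9% of all promoters hold it. CGTGCG, a brassinosteroid response element, lay on the opposite strand 13 to 18 bases before the start of GID1A, and 1.57% of all promoters hold it. The other motifs lay in no member: TGTCGG is in 4.16% of all promoters, the G-box CACGTG is in 6.49%, the brassinosteroid-linked element CGTGTG is in 5.37% and the evening element AAAATATCT is in 2.36%. The G-box and CGTGTG can share letters, and a match or its absence describes these letters in this window alone.

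Among the breakdown enzymes, GA2OX8 (AT4G21200, chr4:11302682-11306770, plus strand), which acts on early precursors, had 13.5, 12.2 and 7.47 CPM in stimulus replicates 2, 3 and 4, against 1.42, 3.23 and 1.07 CPM in mock. The lowest stimulus library was above the highest mock library, mock replicate 3, which is the one on the evening side of the clock score. The difference was 2.48 ± 0.42 (log2, SE), or 5.57-fold, with an edgeR adjusted p of 0.00212, and without mock replicate 3 it was 3.09.

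GA2OX6 (AT1G02400, chr1:486800-489651, plus strand) reached 33.8, 40.5 and 17.6 CPM in stimulus, against 4.61, 11.3 and 6.64 CPM in mock. The groups did not overlap, with stimulus replicate 4 lowest in its group and mock replicate 3 highest in its own. The difference was 1.97 ± 0.43 (log2, SE), or 3.92-fold, with an edgeR adjusted p of 0.00885. Without replicate 2 of both treatments it was 1.64 with an adjusted p of 0.0678, and the call was lost.

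GA2OX2 (AT1G30040, chr1:10537457-10540044, plus strand) had 2.52, 2.80 and 2.42 CPM in stimulus, against 0.340, 0.838 and 0.774 CPM in mock. The 3 stimulus libraries lay close together and far above the mock libraries. The difference was 1.92 ± 0.30 (log2, SE), or 3.80-fold, with an edgeR adjusted p of 5.66e-04.

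GA2OX1 (AT1G78440, chr1:29511561-29513100, minus strand) could not be tested. It had 3, 1 and 1 reads in stimulus and 1, 1 and 0 reads in mock at 0 min, and at most 3 reads in any of the 24 libraries, so no difference was detectable at this depth.

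The receptors split. GID1B (AT3G63010, chr3:23289243-23291486, plus strand) had 10.9, 14.1 and 9.53 CPM in stimulus replicates 2, 3 and 4, against 4.64, 4.61 and 4.44 CPM in mock. Every stimulus library was above the mock libraries, which were nearly equal. The difference was 1.28 ± 0.15 (log2, SE), or 2.43-fold, with an edgeR adjusted p of 9.83e-05.

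GID1A (AT3G05120, chr3:1430363-1432844, plus strand) had 7.52, 8.63 and 7.53 CPM in stimulus, against 15.2, 18.9 and 18.0 CPM in mock. Every stimulus library was below every mock library. The difference was -1.19 ± 0.11 (log2, SE), 0.439 of the mock level, with an edgeR adjusted p of 2.62e-05.

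GID1C (AT5G27320, chr5:9628990-9631291, plus strand) had 11.2, 10.3 and 8.98 CPM in stimulus, against 16.6, 14.1 and 9.86 CPM in mock. The groups overlapped, since mock replicate 4 lay below 2 of the stimulus libraries. The difference was -0.46 ± 0.18 (log2, SE) and missed the threshold with an edgeR adjusted p of 0.0579. It was -0.65 with an adjusted p of 0.00424 without mock replicate 4, and the call was also made without replicate 4 of both treatments, with DESeq2 (adjusted p 0.0462) and with the replicate number as a block (0.0131). Total-count scaling gives -0.21. The call thus depends on the library and on the model.

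Per length of exon, in RPKM, which divides CPM by kilobases of exon, the order of the levels at 0 min differed between the groups. In stimulus, GA2OX6 led with 20.5 ± 7.88 RPKM, followed by GA2OX8 with 7.43 ± 2.12, GID1B with 5.64 ± 1.15, GID1C with 5.51 ± 0.602 and GID1A with 4.12 ± 0.332 RPKM (SD, n = 3). In mock, GID1A led with 9.05 ± 1.01 RPKM, followed by GID1C with 7.34 ± 1.86, GA2OX6 with 5.03 ± 2.31, GID1B with 2.24 ± 0.0532 and GA3OX1 with 2.07 ± 0.747 RPKM. In stimulus, the libraries of GA2OX8, GID1B and GID1C overlapped and those of GA2OX6 stood apart above them. In mock, GID1A overlapped with GID1C, GID1C with GA2OX6, and GID1B with GA3OX1.

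The low end of the order was made of synthesis and breakdown enzymes. In stimulus, GA2OX2 and GA20OX1 were close at 1.08 ± 0.0833 and 1.07 ± 0.178 RPKM, above GA20OX2 at 0.288 ± 0.0730 and GA3OX1 at 0.225 ± 0.0755 RPKM, whose libraries overlapped. In mock, GA2OX8 had 1.28 ± 0.780 RPKM, overlapping with GA3OX1, and GA20OX1 and GA2OX2 overlapped at 0.340 ± 0.105 and 0.273 ± 0.114 RPKM. GA2OX1 was at or below 0.0612 RPKM in every library of both groups at 0 min.

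The rest of the pathway was read from a list of 50 other genes in 8 roles, of which 27 could be tested at 0 min, and 9 were higher and 10 lower in stimulus (edgeR adjusted p under 0.05), beside the 56.3% of all features called. Over 15 alternatives 5 to 11 were higher and 8 to 11 lower, with the 5 found without stimulus replicate 3. The median change over the 27 was -0.05 (log2). The 2 tested genes of each role with the smallest adjusted p are named with values, and the other genes named here were chosen after their values were seen.

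Among early synthesis genes, 3 of 5 rose and 1 fell, where 26.6% of all features were called higher and 29.7% lower. GA1, which encodes the enzyme of the first committed step, averaged 16.2 ± 2.06 CPM in stimulus and 0.471 ± 0.189 CPM in mock (SD, n = 3 each), a difference of 5.04 ± 0.22 (log2, SE; edgeR adjusted p 5.72e-07). With 9, 16 and 22 reads in mock replicates 2, 3 and 4, GA1 passed the filter on low counts through its stimulus libraries. Its call thus carries less weight. GA2, the enzyme of the next step, rose by 1.18 ± 0.12, GA3 also rose, KAO2 fell and CYP88A3 missed the threshold. GA3 lost its call in 7 of the 15 alternatives, among them every single left-out library other than mock replicate 2, with adjusted p up to 0.176. None of the 6 other 20-oxidase and 3-oxidase genes had enough reads to test. Of 7 other inactivating genes only GAMT2 could be tested, at 1.62 ± 0.265 CPM in stimulus and 1.57 ± 0.784 CPM in mock, with an edgeR adjusted p of 0.99.

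All 5 genes of the DELLA repressors were tested, and 4 fell and 0 rose, where 29.7% of all features were called lower. RGA1 averaged 19.0 ± 2.15 CPM in stimulus and 48.8 ± 7.03 CPM in mock, a difference of -1.42 ± 0.12 (log2, SE; edgeR adjusted p 1.59e-05). RGL1 had 9.66 ± 2.17 CPM in stimulus and 14.6 ± 1.07 CPM in mock, a difference of -0.65 ± 0.15 with an adjusted p of 0.00496. GAI and RGL2 also fell, and RGL3 changed by -0.50 with an edgeR adjusted p of 0.187. Of the genes that modify or turn over DELLA proteins, SPY rose by 0.26 ± 0.08 and SEC by 0.31 ± 0.11, SLY1 missed the threshold and SLY2 had too few reads. The count of 4 fell to 1 without replicate 4 of both treatments, where GAI, RGL1 and RGL2 lost their calls (adjusted p 0.305, 0.0648 and 0.0671), and to 2 without replicate 2 of both treatments, without stimulus replicate 4 or with total-count scaling. Over the 15 alternatives RGA1 kept its call in each, RGL1 lost it in 1, RGL2 in 6 and GAI in 8, and SPY and SEC lost theirs in 5 each.

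Among signalling partners and transporters, IDD2, which binds DELLA proteins, rose by 0.64 ± 0.10 (log2, SE; edgeR adjusted p 6.23e-04). The transporter gene AT1G68570 had 17.6 ± 4.24 CPM in stimulus and 85.0 ± 12.2 CPM in mock, a difference of -2.33 ± 0.19 (edgeR adjusted p 2.98e-05). SWEET13, which also encodes a gibberellin transporter, fell too. SCL3 missed the threshold and SWEET14 was not tested.

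Of 14 genes for GASA peptides, a family named for its response to gibberellin, 8 were tested, 2 rose and 3 fell. Of all features 26.6% were called higher and 29.7% lower, so that the family was near the background. GASA5 had 0.208 ± 0.0459 CPM in stimulus and 2.96 ± 0.556 CPM in mock, a difference of -3.86 ± 0.28 (log2, SE; edgeR adjusted p 6.38e-06). With 6, 9 and 7 reads in stimulus replicates 2, 3 and 4, it passed the filter on low counts through its mock libraries. Its call thus carries less weight. AT1G22690 changed by -1.09 ± 0.13 with an adjusted p of 1.32e-04, GASA1 fell, and GASA4 and GASA6 rose. GASA4 lost its call in 6 of the 15 alternatives, among them the replicate block (adjusted p 0.0521), and the other 4 kept theirs in each. Of the 4 class I KNOX genes, which in Arabidopsis meristems act on gibberellin synthesis, KNAT6 alone could be tested and rose by 1.16 ± 0.20 (adjusted p 9.96e-04).

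**Figure D2:**
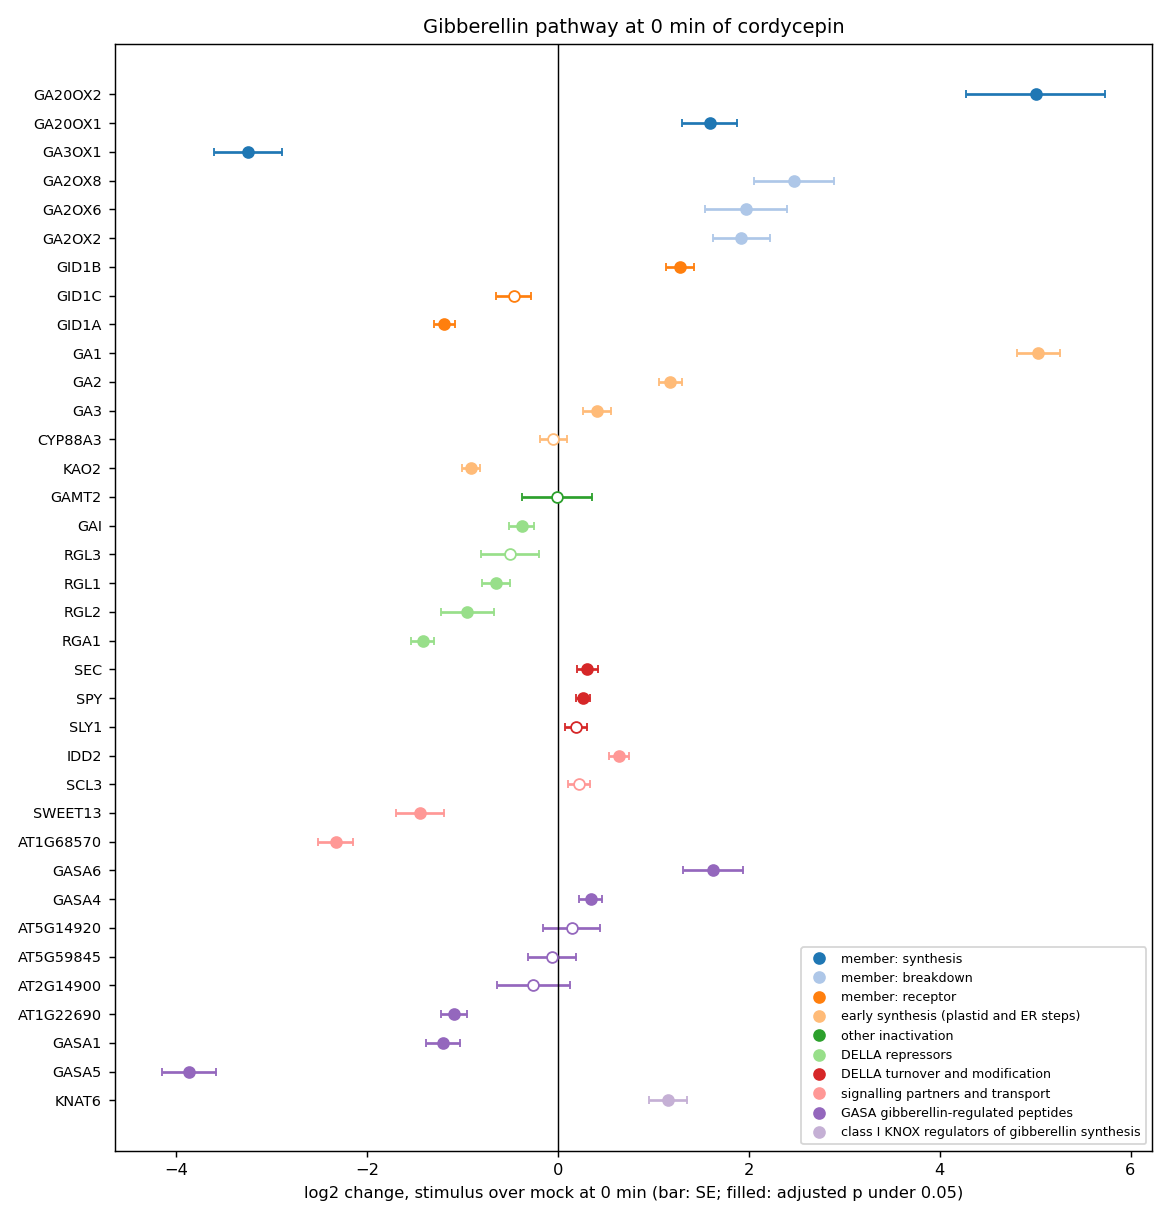
Difference of stimulus over mock at 0 min (log2) for the 9 tested members, at the top, and the 27 tested genes of the pathway list, coloured by role, with bars for the SE and filled points for an edgeR adjusted p under 0.05. GA1 and GA20OX2 lie farthest to the right near 5, and GASA5 and GA3OX1 farthest to the left.

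After cordycepin, a level in CPM is a share of the RNA that remains, so a stable transcript can gain share without new synthesis. Each labelled time has its own 6 libraries. At 15 min, 2 of 8 tested members were called by edgeR, both higher, in a comparison with 15.9% of features called, 7.12% higher and 8.81% lower. GA2OX8 had 7.59, 18.3 and 2.83 CPM in stimulus replicates 2, 3 and 4, against 1.45, 1.69 and 1.26 CPM in mock, a difference of 2.68 ± 0.64 (log2, SE) with an adjusted p of 0.0353. GID1B had 8.86, 12.1 and 8.12 CPM in stimulus, against 3.99, 3.81 and 2.52 CPM in mock, a difference of 1.48 ± 0.26 with an adjusted p of 0.0119. In both genes the groups did not overlap. Over the 6 fits that each leave out 1 library, GA2OX8 kept its call only without stimulus replicate 4, and GID1B lost its call only without stimulus replicate 2 (adjusted p 0.0560). Leaving out replicate 4 of both treatments gave 5 called members of 9 tested, beside 23.4% of features. At this time all same-numbered pairs of libraries deviated together, and with the replicate number as a block edgeR called 3 of 8 members and 26.6% of features. The added member was GA3OX1, at -2.69 ± 0.36 with an adjusted p of 0.00839. It passed the filter on low counts through its mock libraries, with 2 to 20 reads in stimulus, so this call carries less weight.

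At 60 min edgeR called 0 of 7 tested members, against 7.72% of all features, with 3 members under an unadjusted p of 0.05, and DESeq2 called 1, beside 14.0% of features. At 240 min GA2OX8 was the 1 member called of 6 tested, in a comparison with 11.3% of features called and 3.89% called higher. It had 6.07, 4.85 and 4.59 CPM in stimulus replicates 2, 3 and 4, against 0.948, 0.671 and 1.43 CPM in mock, a difference of 2.33 ± 0.41 (log2, SE) with an edgeR adjusted p of 0.0157. Without mock replicate 4, in which the decline index was lowest, 6 of 8 members were called, beside 37.3% of all features. Without stimulus replicate 2, stimulus replicate 4 or mock replicate 3 the count was 0, beside 2.16%, 1.15% and 3.45% of features.

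Set side by side over the 4 times, which share no library, 3 genes never overlapped between the groups in CPM. The share of all features that were apart at all 4 times was not computed, so this count has no background and is a description. GA20OX2 and GA2OX8 were higher in every stimulus library than in every mock library of the same time, and GID1A was lower. For GA20OX2 the margin was 1 read at 15, 60 and 240 min, where stimulus had 1 to 16, 2 to 13 and 2 to 7 reads and mock had 0, 0 to 1 and 0 to 1 reads. Since a count of 0 allows up to 3 reads, the lowest stimulus library is within counting error of the mock libraries at these times. For GID1A, stimulus libraries had 6.91 to 11.7 CPM over all times and mock libraries 9.86 to 18.9 CPM. Among tested members the groups did not overlap for 4 of 8 at 15 min, 2 of 7 at 60 min and 3 of 6 at 240 min, beside 37.1%, 27.4% and 34.5% of all features tested, so that at these later times the members were near the background.

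GA20OX1 stood at 0.0428, 0.0996 and 0.167 CPM in stimulus replicates 2, 3 and 4 at 240 min, against 0.437, 0.600 and 0.179 CPM in mock, on 1 to 4 reads in stimulus and 3 to 17 reads in mock. Every stimulus library was then below every mock library in CPM, by a narrow margin at replicate 4, but the reads overlap and the gene had too few of them to be tested at that time. Mock replicates 2 and 3, the higher ones, had a decline index of -0.09 and -0.48, and mock replicate 4 had -2.17. The part of this unequal decline in the difference was not tested. The stimulus effect at 240 min was lower than that at 0 min by -3.57 ± 0.73 (log2, SE), with an unadjusted p of 4.10e-04 and an edgeR adjusted p of 0.528. DESeq2 gave the same term an adjusted p of 0.0138. By edgeR the term was called for 0.0% of features at 15, 60 and 240 min, with 0, 0 and 2 members under an unadjusted p of 0.05, and by DESeq2 for 0.204% at 240 min, GA20OX1 among them.

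GA3OX1 had 0.0428, 0.0332 and 0 CPM in stimulus at 240 min, on at most 1 read, against 2.81, 3.35 and 0.179 CPM in mock. The 2 high mock libraries, replicates 2 and 3, had a decline index of -0.09 and -0.48, and mock replicate 4, with an index of -2.17, held 3 reads. The same held at 60 min, when mock replicate 2 had 1.58 CPM and mock replicates 3 and 4 had 0.146 and 0.145 CPM. The part of the time labels in these values was not tested.

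**Figure D3:**
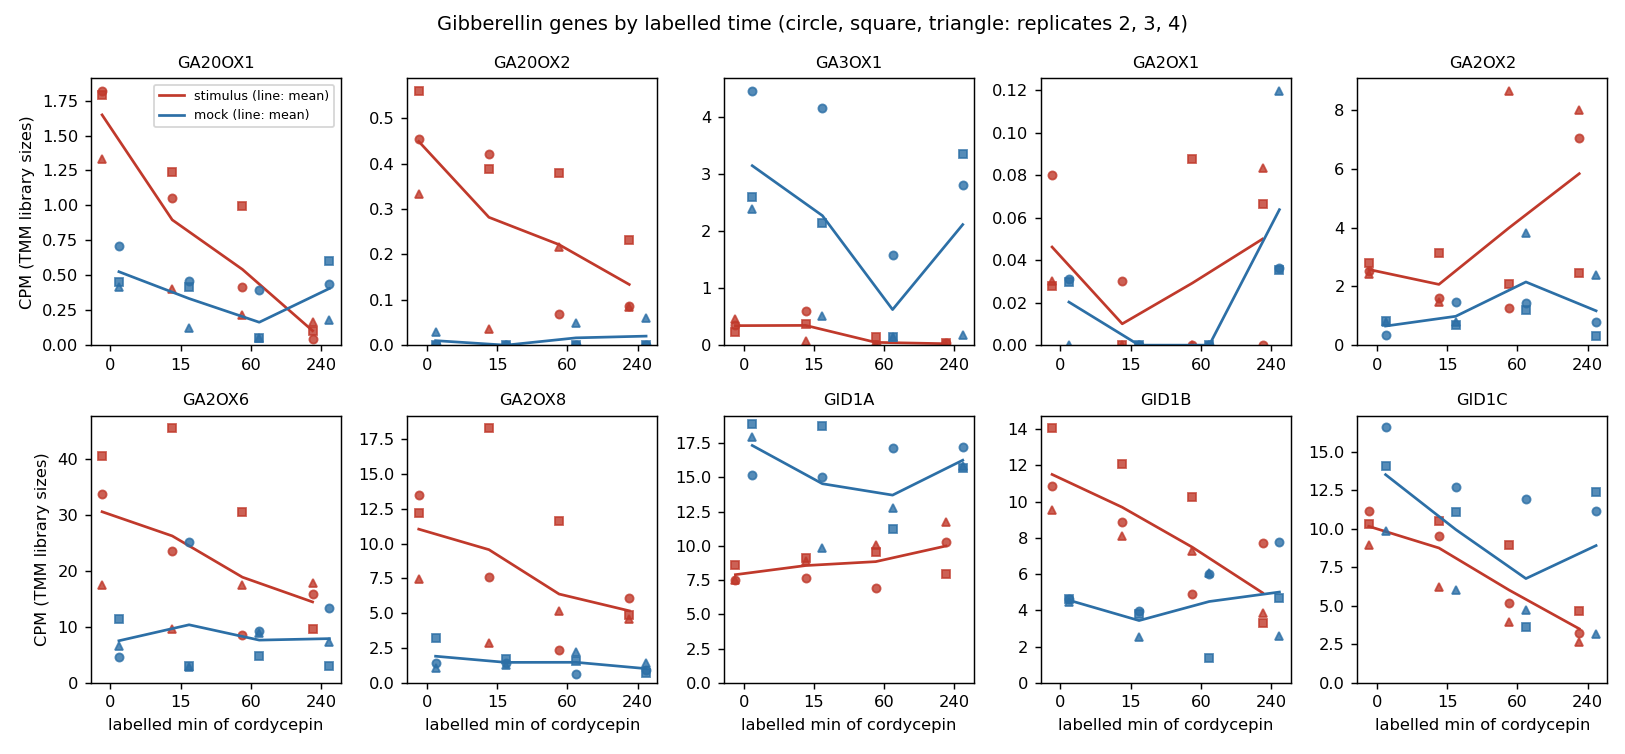
Level of each gene in CPM against the labelled minutes of cordycepin (times evenly spaced, not to scale), red for stimulus and blue for mock, with circles, squares and triangles for replicates 2, 3 and 4 and lines through the means. GID1A, GA20OX2 and GA2OX8 keep the groups apart at each time, and the lines of GA20OX1 cross by 240 min.

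Apart from GA2OX1, which had too few reads to test, GA2OX2 and GID1A were the members with a higher mean in stimulus leaves at 240 min than at 0 min. Mean CPM of GID1A in stimulus was 7.89, 8.56, 8.85 and 9.99 at 0, 15, 60 and 240 min, and that of GA2OX2 was 2.58, 2.07, 4.00 and 5.84. GA2OX2 had 7.06, 2.46 and 8.02 CPM in stimulus replicates 2, 3 and 4 at 240 min, against 0.802, 0.318 and 2.39 CPM in mock. The 2 highest of these are the stimulus libraries in which the index was lowest, at -2.00 and -2.08, while stimulus replicate 3 had an index of -1.54. The difference at 240 min was 2.33 ± 0.78 (log2, SE) with an edgeR adjusted p of 0.0993, and at 60 min stimulus replicate 4 alone reached 8.67 CPM, against 1.25 and 2.08 CPM in stimulus replicates 2 and 3.

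**Figure D4:**
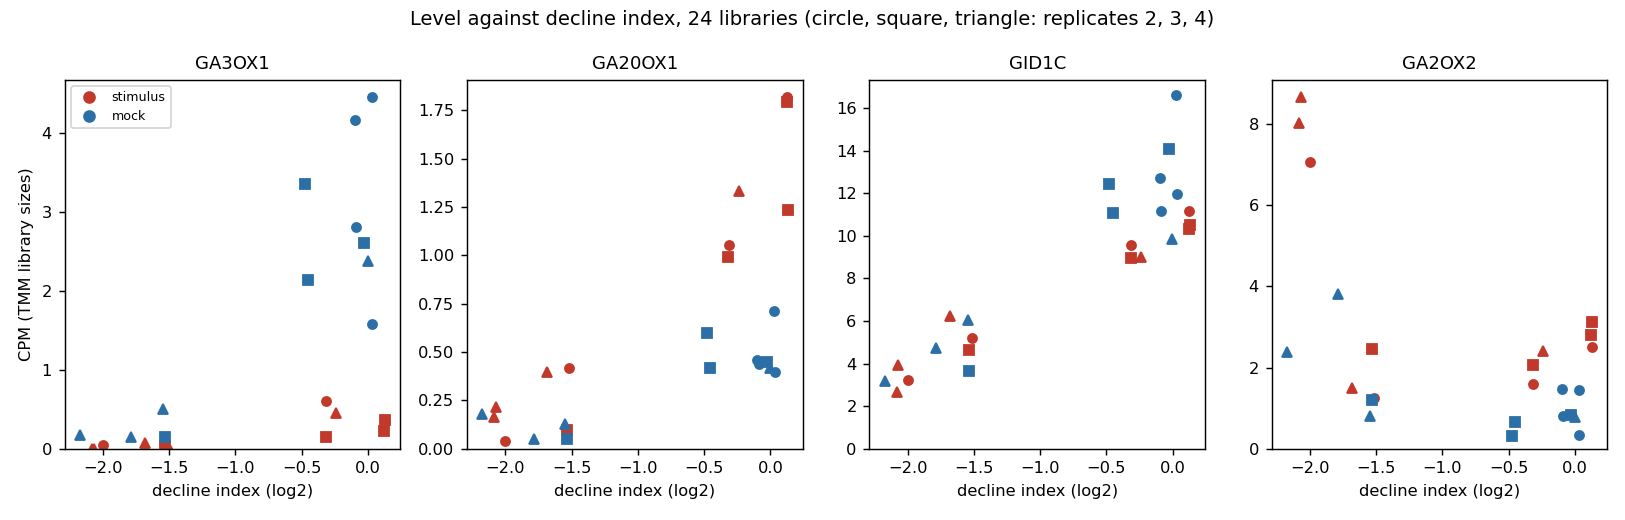
Level of GA3OX1, GA20OX1, GID1C and GA2OX2 in CPM against the decline index of the library (log2), 24 libraries, red for stimulus and blue for mock. GID1C is below 7 CPM in each library with an index under -1 and above 8 CPM in the others of both treatments, whereas GA2OX2 exceeds 7 CPM in 3 stimulus libraries, all with an index near -2.

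The loss of each transcript was fitted as a slope on labelled minutes, with library sizes enlarged by the median rise of 30 presumably stable transcripts. In stimulus, 5 of 9 tested members fell, beside 41.3% of all features falling and 1.65% rising. The median slope of all features was -0.11 (log2 per hour). The 2 steepest were both synthesis genes, with GA3OX1 at -1.11 ± 0.32 (log2 per hour, SE; edgeR adjusted p 0.0142) and GA20OX1 at -1.03 ± 0.17 (adjusted p 0.00376). Both slopes end near the floor of counts. GA3OX1 had 0 to 5 reads at 60 min and 0 to 1 at 240 min, and GA20OX1 had 1 to 4 reads at 240 min. GID1C at -0.46 ± 0.08, GID1B at -0.38 ± 0.08 and GA2OX6 at -0.34 ± 0.12 also fell. GA20OX2 had -0.46 ± 0.18 and GA2OX8 -0.34 ± 0.14, both with adjusted p just above the threshold (0.0591 and 0.0595). GID1A had -0.02 ± 0.04 and GA2OX2 0.22 ± 0.13, with adjusted p of 0.68 and 0.183. Without replicate 2, with a stable-transcript correction for each library, or over 0 to 60 min alone, no member was called and 0.0% of all features were, so the calls of the whole fit rest on those choices.

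In mock, edgeR called 0 of 8 tested members and 0.0% of features, with 1 member under an unadjusted p of 0.05, and DESeq2 also called 0. Over 0 to 60 min alone, edgeR called 3 of 8 members falling in mock, beside 30.3% of all features, so that the members' share was near the background. These were GA3OX1 at -2.79 ± 0.93, GID1C at -1.42 ± 0.43 and GID1A at -0.77 ± 0.24 (log2 per hour, SE), with adjusted p of 0.0470, 0.0377 and 0.0389. The median slope of all features in that fit was -0.51, so these slopes are to be read against it. The correction at 60 min was 0.51 (log2) for every mock library, whereas mock replicate 2 alone gave 0.11. The difference in slope, stimulus minus mock, was called for 0 of 9 members and 0.0% of features by edgeR, with 3 members under an unadjusted p of 0.05, and for 0 members by DESeq2. It was largest for GA3OX1, at -0.96 ± 0.45, and for GA20OX1, at -0.93 ± 0.25, both with an adjusted p of 0.807. Over the alternatives it ran from -1.23 to -0.06 for GA3OX1 and from -1.50 to 0.32 for GA20OX1, whose sign turned over 0 to 60 min alone. A p above the threshold does not show that the slopes were alike.

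Over all 24 libraries, with labelled time as a term, edgeR called 7 of 9 members, 5 higher and 2 lower, beside 52.4% of features (25.8% higher and 26.6% lower). GA20OX2, GA2OX2, GA2OX6, GA2OX8 and GID1B were higher, and GA3OX1 and GID1A were lower. Here too GA20OX2 passed the filter on low counts through its stimulus libraries. GA20OX1, which was called higher at 0 min and was not tested at 240 min, had 0.85 ± 0.46 (log2, SE; adjusted p 0.13), and GID1C had -0.54 ± 0.24 (adjusted p 0.0616). With the side of the clock score as a further term the counts were again 5 higher and 2 lower. On the morning side alone 4 were higher and 2 lower, GA2OX6 losing its call, beside 46.5% of features called. On the evening side, with 4 stimulus and 3 mock libraries, GA2OX8 alone was called of 9, beside 15.4% of features.

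The clock sides were close in level for the receptor that fell. GID1A had a median of 9.34 CPM in 4 evening and 8.12 CPM in 8 morning libraries of stimulus, against 18.7 CPM in 3 evening and 15.2 CPM in 9 morning libraries of mock. GA2OX8 had 8.24 and 6.77 CPM on the evening and morning sides of stimulus, against 1.69 and 1.26 CPM in mock. The ranges of the treatments did not overlap on either side for GA2OX8, and for GID1A they overlapped on the morning side only, where stimulus reached 10.3 CPM and mock went down to 9.86 CPM.

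The genes most like 3 members over the 24 libraries were found by Pearson's r of log2(CPM + 1) among 10321 genes, as a description that shares library, depth and treatment. For GA3OX1 these were PHR1, TMM and CIA2 (r = 0.94 each). For GA2OX2 they were FH4 (r = 0.96), AT5G55860 and AT5G59450 (r = 0.94 each). For GID1A they were AT2G03750 (r = 0.94), AT5G45060 and AUL1 (r = 0.92 each).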

How the data were processed

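RNA was sequenced as stranded, ribosome-depleted single reads, per the labels' protocols. The authors deposited whole-number read counts for 38194 features in 24 libraries, neither normalised nor pooled. The submitters' processing notes name TopHat2, Bowtie2 and the build TAIR10, and the counting tool, annotation and strand setting are not given in the sources used here. No annotated gene overlaps a member, and no other feature had nearly the same counts. Symbols, coordinates and exon lengths came from RefSeq TAIR10.1 by locus tag, where 37751 features matched.

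Counts were fitted over all features with edgeR 4.0.16 (quasi-likelihood, TMM, filterByExpr) in R 4.3.3, with two-sided tests, Benjamini-Hochberg adjustment over all tested features and a threshold of 0.05. Levels are CPM with TMM library sizes over all 24 libraries. An SE is the size of the log2 change divided by the square root of F. Groups and replicate numbers came from the labels. The deviations of same-numbered libraries from their group means correlated over 0.1 in all 3 pairs at 15 min (0.35, 0.54 and 0.67) and at no other time in all 3. Replicate pairs differed beyond counting noise (a chi-square of 6.52 to 222 for each degree of freedom, over 24 pairs).

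For slopes, library sizes were multiplied by the median rise (log2) since 0 min of 30 transcripts of glycolysis, respiration and transport: 0.04, 0.25 and 0.42 in stimulus and 0.21, 0.51 and 0.45 in mock at 15, 60 and 240 min. A first set of 30 photosynthesis transcripts moved with the clock score and was replaced after that was seen. The members, lists and tests were chosen with earlier results of these data known. All 10 members are named, as are the 2 tested genes of each pathway role with the smallest adjusted p at 0 min, and the 3 genes most correlated with 1 member of each role. Alternatives were other scalings, filters, DESeq2 1.42.0, the replicate number as a block, left-out libraries and clock sides. The fits were tested on simulated data with the same spread for every gene and without decay factors. That test does not cover the slopes as fitted here or the comparisons after 0 min.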

Additional observations from a re-analysis of the deposited data

How the results depend on the processing

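The count of members called at 0 min stayed between 7 and 9 under the alternatives run, beside 35.9% to 61.3% of all features. Each fit tested 9 members, except the fit without the filter on low counts, which tested 10. GA20OX1, GA20OX2, GA3OX1, GA2OX2, GA2OX8, GID1A and GID1B kept their calls and directions in each fit. The calls of GA20OX2 and GA3OX1 carry less weight, as said above. GA20OX2 passed the filter on low counts through its stimulus libraries, and GA3OX1 through its mock libraries. Later comparisons did not hold as firmly. For stimulus against mock at 15 min, DESeq2 called 4 members, the replicate block called 3, and leaving out replicates or single libraries gave 0 to 5. For stimulus against mock at 60 min, DESeq2 and the replicate block called 1 each. For stimulus against mock at 240 min, total-count scaling, no filter on low counts and the replicate block called 2 each, DESeq2 called 3, and left-out libraries gave 0 to 6. For stimulus against mock over all 24 libraries, the evening side alone gave 1. For the decline in stimulus, a decay factor for each library and 0 to 60 min only gave 0, the morning side alone gave 2, and left-out replicates gave 0 to 5. For the decline in mock, 0 to 60 min only gave 3. For the stimulus effect at 240 min minus that at 0 min, DESeq2 called 1. The share of all features called over the alternatives ran from 0.0% to 26.6% at 15 min, 0.0% to 14.0% at 60 min, 0.0% to 37.3% at 240 min and 0.0% to 47.5% for the decline in stimulus. The causes were not tested.

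Changes of sign (log2) concerned values that had missed the threshold, and not all are listed here. Over the alternatives, the difference in decline ran from -0.64 to 0.63 for GA2OX2, -0.46 to 0.45 for GID1C and -0.28 to 0.075 for GA2OX8. The decline in mock ran from -0.29 to 1.19 for GA2OX2. The stimulus effect minus that at 0 min ran from -1.97 to 1.54 for GA2OX6 at 15 min and -4.60 to 2.11 for GA3OX1 at 60 min. GID1C, stimulus against mock, turned to 0.11 at 15 min and 0.16 at 60 min with total-count scaling and to 0.062 on the evening side over all times. GID1B at 240 min turned to 0.091 with total-count scaling. GID1A, decline in stimulus, turned to 0.078 without decay factors and to 0.12 with photosynthesis transcripts as references, where it was called (adjusted p 0.0458). GA20OX1, difference in decline, turned to 0.32 over 0 to 60 min. GAMT2 at 0 min gave 0.014 with median-ratio scaling, 0.013 with DESeq2, 0.24 with total-count scaling and 0.074 with the replicate block. Left-out libraries gave -0.45 to 0.014 for GID1C at 15 min and -0.89 to 0.59 at 60 min, -0.39 to 1.55 for GA2OX2 at 60 min, -0.022 to 1.20 for GID1B at 60 min and -0.48 to 0.42 at 240 min, -0.057 to 0.030 for the slope of GID1A, and -0.35 to 0.45 for GAMT2.

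At times other than 15 min replicate numbers paired the samples only in part. Same-numbered libraries correlated at 0.80 for replicate 4 at 60 min and at 0.60 and 0.61 for replicates 3 and 4 at 240 min. Replicates 2 and 3 at 60 min gave 0.13 and -0.11, and replicate 2 at 240 min gave -0.15. At 0 min the values were -0.11 to 0.17. Over all times they were over 0.1 in 8 of 12 pairs, and best with their own number in 7. The main fits had no term for the replicate number. With the replicate block GID1C at 0 min had an adjusted p of 0.0131. GA2OX1, and GA20OX2 in mock, are limited by depth. The evening side of the decline in mock was not run, as it leaves too few libraries. The interaction with time, single left-out libraries after 0 min, 0 to 60 min over all libraries, the photosynthesis references and clock sides of the slopes were chosen after seeing the data.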
